A study of Mus musculus with 2 samples.

Results

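Voltage-gated sodium channel messages were described here through 7 genes chosen by symbol: the pore-forming subunits Scn1a, Scn2a, Scn3a and Scn8a and the accessory beta subunits Scn2b, Scn3b and Scn4b. All 7 symbols were found among 55536 annotated genes, with 53 annotated transcripts of 141767. The samples were hippocampi of 14-day-old female B6CASTF1/J mice, the first-generation hybrid of C57BL/6J and CAST/EiJ, with no treatment and no altered gene named in the labels. They formed 1 group of 2 rRNA-depleted total RNA libraries, called biological replicates 1 and 2, each listing 3 females and made from 300 ng of RNA with synthetic ERCC spike-in RNAs added. Mouse numbers differ between the libraries, the donor identifier is shared, and the labels speak of a layer of the hippocampus without naming it. The design holds no second condition, so levels, their order and the spread between the libraries are what it can give.

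Sodium channels open on depolarisation and carry the inward current of the action potential. Each channel is built on a large alpha subunit of repeated homologous domains, which forms the pore, joined by small single-pass beta subunits that alter gating and surface expression and act as adhesion molecules. In the forebrain Scn2a (NaV1.2) is found on axons of excitatory neurons, Scn8a (NaV1.6) takes over at the mature axon initial segment and nodes of Ranvier, Scn1a (NaV1.1) is prominent in inhibitory interneurons, and Scn3a (NaV1.3) is known as the embryonic form.

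In domain I of the alpha subunits, 2 neighbouring exons of 92 bases are used as alternatives, the upstream one known as the neonatal form and the downstream one as the adult form. In the mm10 annotation Scn2a, Scn3a and Scn8a have both exons and Scn1a has only the downstream kind. The downstream exon is shown for each gene because the members differed in how much of their transcripts carried it. It is coding sequence, written 5′ to 3′ on the gene's own strand, and capitals mark bases that differ from the exon of Scn2a.
Scn2a downstream, chr2:65682690-65682781, plus strand: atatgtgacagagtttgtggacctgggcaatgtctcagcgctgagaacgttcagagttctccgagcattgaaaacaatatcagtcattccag
Scn3a downstream, chr2:65525695-65525786, minus strand: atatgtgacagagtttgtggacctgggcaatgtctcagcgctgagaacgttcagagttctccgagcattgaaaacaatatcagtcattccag
Scn8a downstream, chr15:100959603-100959694, plus strand: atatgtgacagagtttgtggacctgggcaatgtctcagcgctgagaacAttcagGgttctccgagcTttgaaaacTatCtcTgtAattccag
Scn1a downstream, chr2:66332207-66332298, minus strand: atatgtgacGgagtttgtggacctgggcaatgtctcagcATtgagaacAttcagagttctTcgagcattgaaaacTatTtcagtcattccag

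The exons of Scn2a and Scn3a were identical in all 92 bases, so that reads lying within them cannot be assigned to either gene by sequence. The Scn8a exon shared 85 of 92 bases with that of Scn2a, and the Scn1a exon also shared 85. In Scn2a-205, Scn3a-202, Scn8a-204 and Scn1a-204, which have 27 exons each, it is the 6th exon.

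Depth was 33321573 expected counts on annotated genes in replicate 1 and 32740837 in replicate 2. Expected counts are reads assigned to a gene by an estimate, and TPM, a length-normalised abundance, divides them by transcript length and scales each library to a fixed sum. The 7 genes took 54443 and 52855 of these counts, or 0.163% and 0.161%. Glutamatergic (Slc17a7, 691 ± 27.3 TPM, SD, n = 2) and dentate granule (Prox1, 50.4 ± 7.37 TPM) markers were present in both libraries. The libraries stood apart in choroid plexus, the epithelium that makes cerebrospinal fluid: all 4 of its markers were lower in replicate 2, with a summed level of 1404 TPM in replicate 1 and 6.16 in replicate 2. In bulk tissue fewer cells of a type and less RNA per cell cannot be told apart. With 2 libraries from different females, biological and technical spread cannot be told apart either, and no p-value is given.

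The pore-forming subunits fell into an abundant pair, Scn2a and Scn8a, and a scarcer pair, Scn1a and Scn3a. Scn2a (ENSMUSG00000075318.12), on chromosome 2 from 65620771 to 65767447 on the plus strand, stood at 118 and 112 TPM in replicates 1 and 2, with 17660 and 17093 expected counts. Its mean of 115 ± 3.87 TPM (SD, n = 2) placed it 713th of 12892 nuclear protein-coding genes detected at 1 TPM or more in both libraries, whose median was 14.9 TPM. Scn8a (ENSMUSG00000023033.14), on chromosome 15 from 100869858 to 101045938 on the plus strand, had 90.3 and 91.98 TPM from 15181 and 15147 counts, a mean of 91.2 ± 1.17. The 2 genes did not overlap, Scn2a being the higher in both libraries by a ratio of 1.26 ± 0.0587.

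Scn1a (ENSMUSG00000064329.13), on chromosome 2 from 66270778 to 66440840 on the minus strand, had 21.5 and 19.7 TPM from 3291 and 2980 counts, a mean of 20.6 ± 1.27. It is the gene of Dravet syndrome in people. Its level lay below that of Scn2a by a ratio of 5.57 ± 0.154 and below that of Scn8a by 4.43 ± 0.329. Scn3a (ENSMUSG00000057182.14), in the same cluster and on the other side of Scn2a, from 65457118 to 65567627 on the minus strand, had 17.2 and 15.7 TPM from 2921 and 2715 counts, a mean of 16.5 ± 1.07. The embryonic form was thus near the level of Scn1a at this age, below it by a ratio of 1.25 ± 0.00423, and the values of the 2 genes did not overlap. Both sat near the middle of detected protein-coding genes, at the 60.2nd and 53.2nd percentiles, where Scn2a and Scn8a were at the 94.5th and 92.7th.

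As a share of the TPM summed over the pore-forming genes of the family, Scn2a made up 47.1% in replicate 1 and 46.3% in replicate 2, a mean of 46.7% ± 0.587 (SD, n = 2). Scn8a made up 37.1% ± 1.26, Scn1a 8.38% ± 0.337 and Scn3a 6.70% ± 0.292. Scn9a held 0.661%. The order of the 4 shares was the same in both libraries. It was also the same in the second deposited quantification, a separate estimate made from the reads, with 46.6%, 38.0%, 7.81% and 6.37%.

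**Figure D1:**
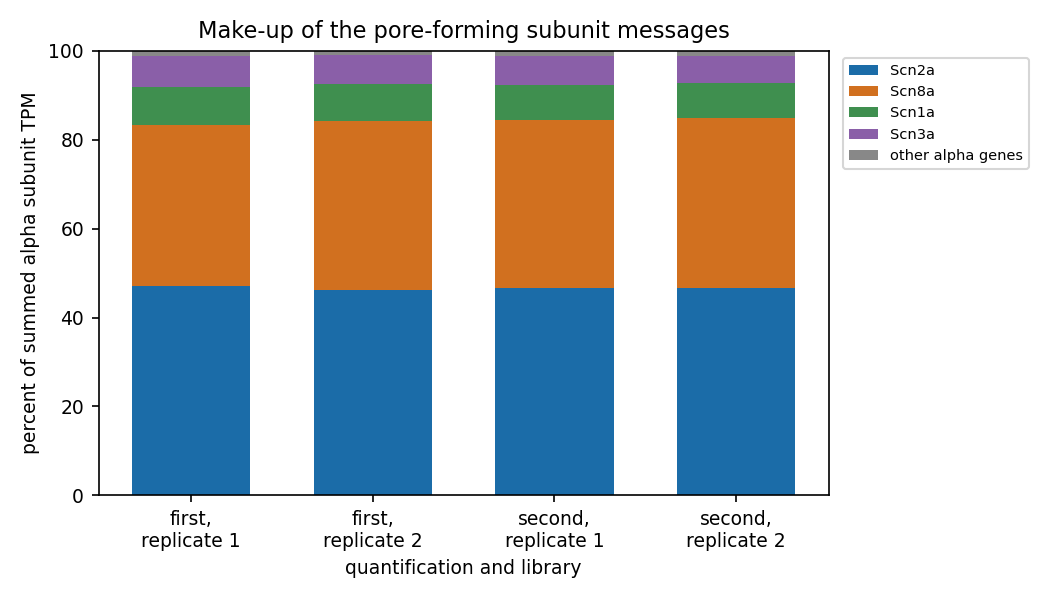
Stacked bars give the percent of the TPM summed over the pore-forming genes (y axis) for each library in each quantification (x axis); genes other than Scn2a, Scn8a, Scn1a and Scn3a are drawn together. Scn2a held between 46.3% and 47.1% in every bar, and Scn8a between 36.2% and 38.3%.

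Among the beta subunits Scn3b and Scn2b were abundant and Scn4b was scarce. Scn3b (ENSMUSG00000049281.16; beta3, which binds the alpha subunit without a disulfide bond), on chromosome 9 from 40269217 to 40291618 on the plus strand, had 102 and 104 TPM from 7954 and 8119 counts. Its mean of 103 ± 1.62 TPM (SD, n = 2) lay between those of Scn2a and Scn8a. Scn2b (ENSMUSG00000070304.12; beta2, which is joined to the alpha subunit by a disulfide bond), on chromosome 9 from 45117782 to 45130070 on the plus strand, had 70.3 and 63.2 TPM from 7146 and 6414 counts, a mean of 66.8 ± 5.01. Scn3b was the higher in both libraries, by a ratio of 1.54 ± 0.140.

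Scn4b (ENSMUSG00000046480.6; beta4, whose cytoplasmic tail is known as the blocking particle of resurgent current) is the neighbour of Scn2b on the same strand, from 45138395 to 45154152. It had 2.60 and 3.49 TPM from 290 and 387 counts, a mean of 3.05 ± 0.629, at the 12.3rd percentile of detected protein-coding genes. The neighbouring genes thus differed by a ratio of 22.6 ± 6.31. Counting intervals for Scn4b, at 95% and for counting error only, ran from 2.31 to 2.92 TPM in replicate 1 and from 3.15 to 3.86 in replicate 2, so that the libraries differed by more than counting error.

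From highest to lowest the 7 genes ran Scn2a, Scn3b, Scn8a, Scn2b, Scn1a, Scn3a and Scn4b, and the libraries of neighbours in this order did not overlap for any of the 6 neighbouring pairs. The smallest steps were from Scn2a to Scn3b, 1.12-fold, and from Scn3b to Scn8a, 1.13-fold. The widest was from Scn3a to Scn4b, 5.41-fold, followed by that from Scn2b to Scn1a, 3.24-fold. With the second quantification Scn3b stood above Scn2a instead, at 168 and 174 TPM against 164 and 158, the other places were the same, and again no neighbours overlapped. All 7 genes had higher TPM in the second quantification, with a median log2 difference of 0.49 (log2 of TPM + 0.1), where 13168 protein-coding genes had 0.63; after both quantifications were rescaled over nuclear protein-coding genes these were -0.23 and -0.08. None of the 7 differed over 2-fold the same way in both libraries, against 19.2% of the 18313 genes compared.

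**Figure D2:**
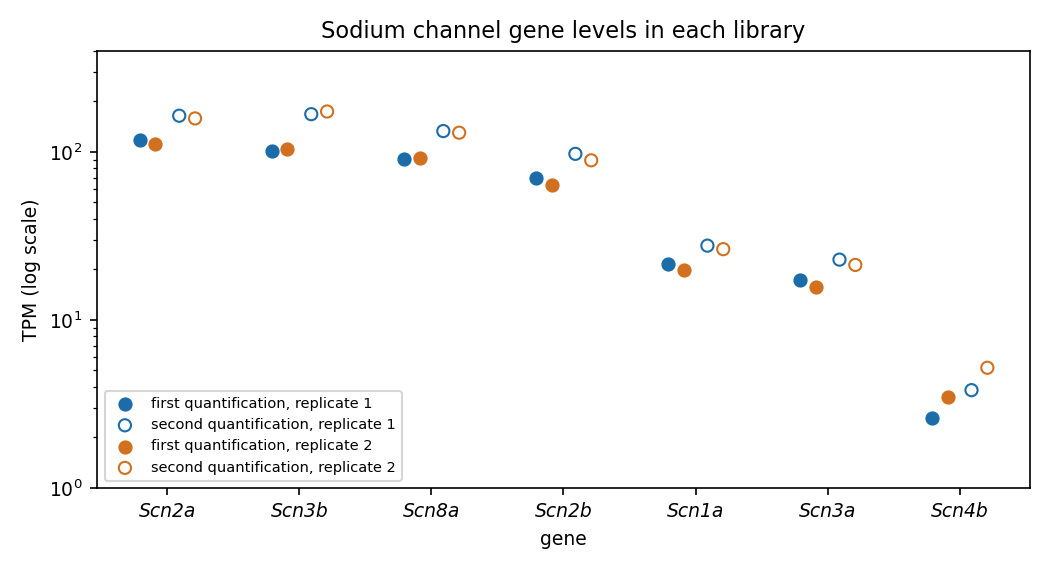
Points give the TPM of each sodium channel gene (x axis) on a log scale (y axis), filled for the first quantification, open for the second, blue for replicate 1 and orange for replicate 2. Scn2a, Scn3b, Scn8a and Scn2b lie between 63.2 and 174 TPM, Scn1a and Scn3a between 15.7 and 27.7, and Scn4b between 2.60 and 5.19.

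Between the libraries the 7 genes differed little except for Scn4b. Ratios (replicate 2 over replicate 1) were taken from expected counts after TMM scaling, which sets library sizes so that most genes do not move, and counting intervals at 95%. Scn1a was at 0.971-fold (0.923 to 1.02) and Scn3a at 0.996-fold (0.945 to 1.05), so neither differed beyond counting error. Scn2a was at 1.04-fold (1.02 to 1.06), Scn8a at 1.07-fold (1.05 to 1.09), Scn3b at 1.09-fold (1.06 to 1.13) and Scn2b at 0.962-fold (0.930 to 0.995). These intervals exclude equality, but each ratio departed from 1 by less than 0.104, the common coefficient of variation between the libraries over 17910 genes. Scn2a was higher in replicate 2 on this scale and lower as TPM, and its log2 ratio was 0.05 with TMM scaling and -0.02 with scaling by total counts.

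Scn4b was at 1.43-fold (1.22 to 1.67) in replicate 2, and 5.69% of all genes had a ratio at least that far from 1. No member passed 1.5-fold, against 4.25% of the 14715 genes with a mean of at least 1 TPM and at least 50 summed counts. The log2 ratios of all these genes had a central 95% range from -0.62 to 0.48, and that of Scn4b, 0.52, lay above it while the other 6 ran from -0.06 to 0.13. The same ratio of Scn4b was 0.53 in the second quantification. Among marker lists the 3 dentate granule markers were all higher in replicate 2, with a summed level of 66.3 TPM in replicate 1 and 85.3 in replicate 2, and a median log2 ratio of 0.58. Of the 4 astrocyte markers, Slc1a2, Aldoc and Gja1 were higher too. Aqp4 was level by ratio, at 1.00-fold, and lower as TPM, at 75.6 and 69.6. The astrocyte markers summed to 1475 and 1752 TPM. All 3 microglia markers were higher, 78.4 and 91.5 TPM summed. The 3 CA3 markers were all lower in replicate 2, 141.2 and 119.6 TPM summed, and so were 3 of the 4 interneuron markers, 342.8 and 283.7. The CA1 markers were split, with Wfs1 at 1.48-fold, Mpped1 at 1.18-fold and Fibcd1 at 0.877-fold. By ratio all oligodendrocyte, oligodendrocyte precursor and endothelium markers were higher, with median log2 ratios of 0.086, 0.220 and 0.085. Pan-neuronal markers were mixed, with a median of 0.012. The 4 choroid plexus markers were lower as given above, and the part of any of these lists in the Scn4b ratio was not tested.

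**Figure D3:**
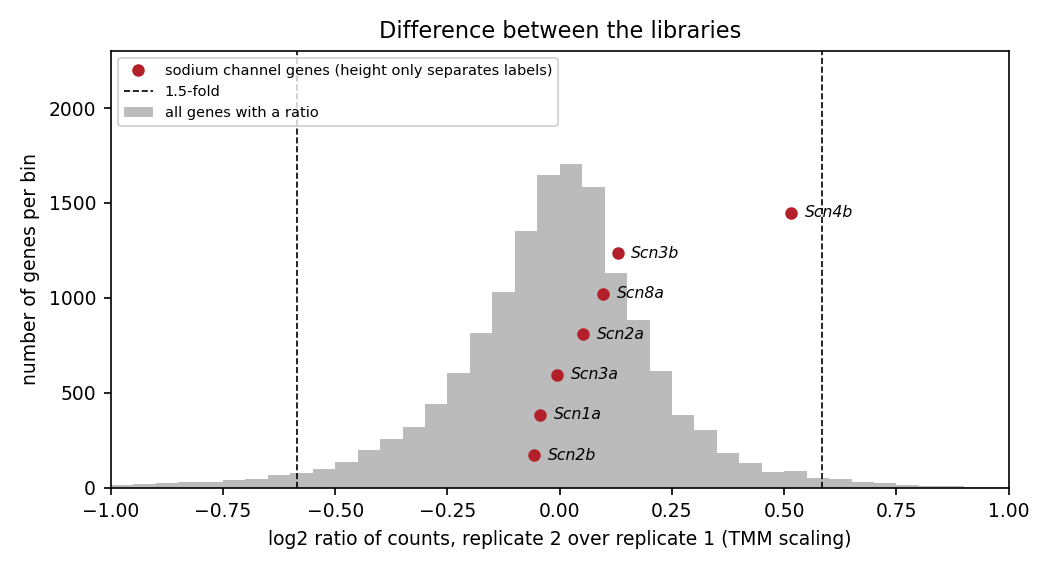
Grey bars count genes (y axis) by the log2 ratio of replicate 2 to replicate 1 (x axis, TMM scaling), with dashed lines at 1.5-fold and 152 genes beyond the drawn range; red points mark the 7 sodium channel genes and their height carries no value. Scn4b at 0.52 stands apart from the other 6, which lie between -0.06 and 0.13.

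Transcript shares come from an estimate over overlapping models, so they rest on fewer distinguishing reads than gene levels. Of the 53 transcripts, 8 were listed at 0 in both libraries of the first quantification. The share over all 141767 transcripts is not given here, so this count does not set the members apart. Scn4b has a single annotated transcript. Scn3a was led by Scn3a-202 with 79.7% ± 1.38 of the gene's TPM (90.5% in the second quantification) and Scn2b by Scn2b-202 with 85.3% ± 1.83 (100% in the second). Both Scn2b transcripts encode the same 645 coding bases. By the mean of the libraries the same transcript led in both quantifications for 5 of the 7 genes, the exceptions being Scn8a and Scn3b. Scn4b is among the 5 only by its single transcript, and the like share over all genes is not given here.

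Scn2a-201, whose 6018 coding bases include the upstream exon, was the leading transcript of its gene with 53.3% ± 1.03, and 53.0% in the second quantification. Scn2a-205, which encodes the same length with the downstream exon, held 16.1% ± 1.95 in the first and 30.2% in the second. Scn2a-204, a shorter model of 1810 bases with the downstream exon, held 16.9% ± 2.29 and 2.90%. Scn2a-202, the other transcript with the upstream exon, held 6.41% ± 1.24 in the first quantification and 0.000228% in the second.

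Scn8a-205 led its gene in the first quantification with 41.1% ± 3.39, where it held 20.1% in the second. Scn8a-203, which encodes the same 5934 coding bases, held 9.60% ± 0.0919 and 23.0%. The 2 together made up 50.7% ± 3.49 and 43.2%, so the estimates for this coding sequence were closer than those for its transcripts. Scn8a-204, with 5964 coding bases, held 13.0% ± 2.16 and 18.5%, and Scn8a-212, a partial model of 2565 bases with the upstream exon, 14.7% ± 2.42 and 5.61%. The other 16 Scn8a transcripts were each at or under 5.44% in the first quantification and 7.60% in the second.

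In Scn1a the leading transcript was not the same in both libraries. Scn1a-203 held 52.0% in replicate 1 and 32.8% in replicate 2, while Scn1a-201 held 23.3% and 42.3%. The second quantification gave Scn1a-203 47.8% and 37.8% and gave Scn1a-204 21.2% and 41.4% and Scn1a-201 9.86% and 0.258%. Scn1a-201 and Scn1a-204 encode the same 5994 bases, and neither has a 31-base word that no other Scn1a transcript holds. Scn1a-206, a partial model of 1690 bases, held 16.2% ± 0.841 in the first quantification and was listed at 0 in the second.

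Scn3b-201, Scn3b-202 and Scn3b-203 encode the same 645 bases and together made up 79.4% ± 0.0212 of Scn3b (71.3% in the second quantification). Their separate shares were 25.6% ± 3.06, 24.5% ± 1.27 and 29.3% ± 4.36 in the first and 44.4%, 2.33% and 24.5% in the second. Of the 3, Scn3b-202 differed most between the quantifications. Scn3b-205, a processed transcript of 704 bases, held 8.07% ± 0.262 and 16.3%.

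**Figure D4:**
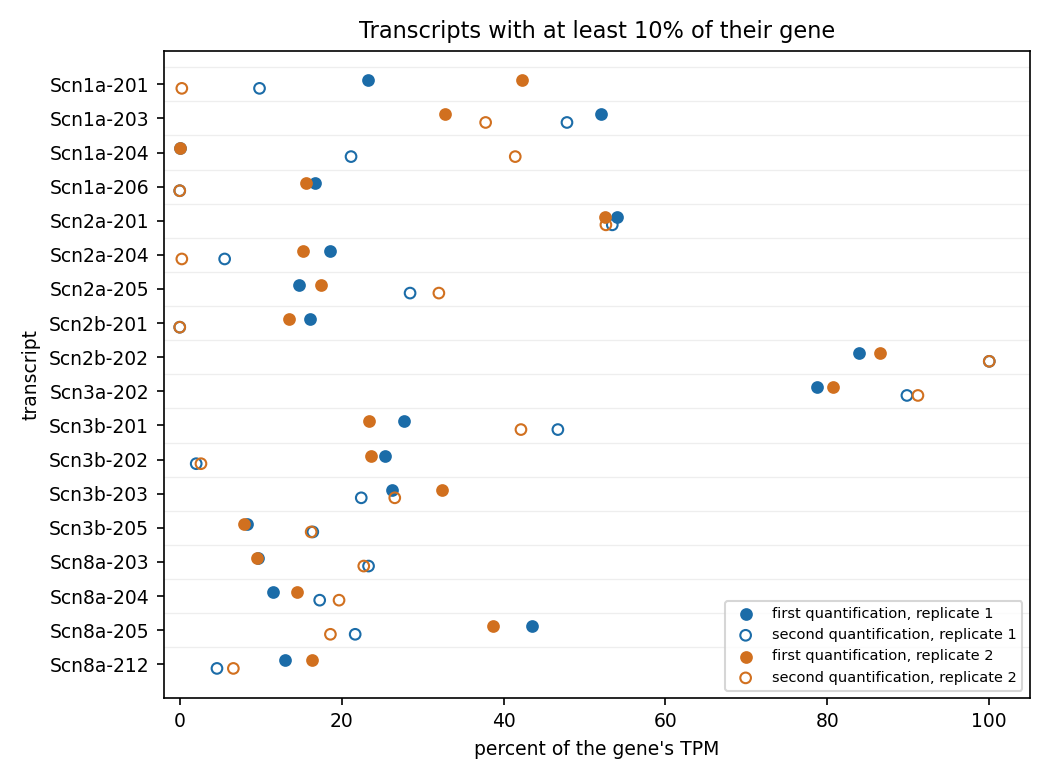
Points give each transcript's percent of its gene's TPM (x axis) for the transcripts (y axis) with at least 10% in either quantification, Scn4b left out; filled points are the first quantification, open points the second, blue replicate 1 and orange replicate 2. Scn2a-201 stays at 52.6% to 54.0% in all 4 estimates, while Scn8a-205 falls from 43.5% and 38.7% to 21.7% and 18.6%.

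Transcripts labelled retained intron by the annotation made up 5.51% ± 0.608 of Scn1a, 7.19% ± 0.276 of Scn2a, 8.74% ± 1.79 of Scn8a and 6.80% ± 0.361 of Scn3b. The second quantification gave 7.65%, 9.08%, 8.22% and 6.60%. Scn3a, Scn2b and Scn4b have no annotated transcript of this class.

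The members differed in which of the 92-base exons their transcripts carried. In Scn2a the transcripts with the upstream exon held 64.2% in replicate 1 and 64.6% in replicate 2 of the TPM of transcripts with either exon, a mean of 64.4% ± 0.326 (SD, n = 2). In Scn8a the upstream exon held 23.1% and 26.2%, a mean of 24.7% ± 2.16. In Scn3a the downstream exon held 89.4% and 91.5%. By these estimates, models with the neonatal exon held most of the Scn2a TPM in transcripts with either exon. In Scn8a, models with the adult exon held most of it, in both libraries.

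The second quantification gave 61.1% and 62.0% for the upstream exon of Scn2a and 22.4% and 27.2% for that of Scn8a. The size of these shares depended on which transcripts were counted. Counting only transcripts with at least 5000 coding bases, a choice made after seeing the data, the upstream exon held 78.8% ± 1.96 in Scn2a and 0.592% ± 0.426 in Scn8a in the first quantification. The second gave 63.7% and 12.1%. In the first, Scn8a-201 and Scn8a-213, full-length Scn8a transcripts with the upstream exon, were listed at 0. The 0.592% there rests on Scn8a-208 alone, with 5811 coding bases and 0.17 and 0.52 TPM. In the second quantification Scn8a-201 had 8.77 and 11.2 TPM. By expected counts, which give long transcripts more weight, the upstream share was 80.2% ± 0.960 in Scn2a and 6.86% ± 1.03 in Scn8a, and by the estimated counts of the second quantification 71.0% and 16.2%. Across these ways of counting, transcripts with the upstream exon held the larger share in Scn2a and the smaller in Scn8a in both libraries, with no firm value for either gene. All of these ways sum the same transcript models, so they do not check each other. Use of the exon itself was not measured apart from the rest of the transcript.

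Of 2478 words of 31 bases found only in Scn2a transcripts with the upstream exon, 115 touch the exon, and for Scn8a 147 of 2123 do. The upstream forms therefore also differ from the downstream forms elsewhere in the transcripts, and reads from there enter every share above. Scn2a-201 has 8935 bases and Scn2a-205 has 6348, with 6018 coding bases each. Of the words found only with the downstream exon, 115 of 164 touch it in Scn2a and 118 of 168 in Scn8a. The Scn3a upstream exon is annotated only on Scn3a-203, a fragment of 365 bases with 10.5 and 7.69 expected counts, listed at 0 in the second quantification. Its 10.6% and 8.51% of TPM correspond to 0.369% and 0.290% of expected counts. Scn3a use of this exon is therefore not measured well here.

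Further alternative exons change the linker between domains I and II. In Scn8a a longer form of a coding exon, 387 in place of 357 bases, adds 30 bases at chr15:100984046-100984075. The stretch is shown because both quantifications gave TPM to transcript models that carry it. In Scn1a an exon of the linker has forms of 297, 348 and 381 bases.
Scn8a added stretch, plus strand: gtgaaaatagataaggcagctacagacagt

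The longer Scn8a form held 14.8% in replicate 1 and 18.2% in replicate 2 of transcripts with either form, and 23.4% and 25.3% in the second quantification. In Scn1a the 381-base form held 69.1% and 43.7%, the 348-base form 30.9% and 56.3%, and the 297-base form was listed at 0. The second quantification gave the 381-base form 55.0% and 46.9%, the 348-base form 35.6% and 51.8% and the 297-base form 9.41% and 1.31%. The share of the longest form was thus higher in Scn1a than in Scn8a in every estimate, though the exons were not shown to be equivalent sites. Whether models with the 381-base or the 348-base form led in Scn1a changed from library to library in both quantifications. The 381-base form is held only by Scn1a-203, so its share is that of the whole transcript. Scn1a-203 has 264 words of 31 bases that no other Scn1a transcript holds. How many of them touch this exon was not counted, and use of the exon forms themselves was not measured.

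Scn8a also has 2 alternative exons, of 68 and 123 bases, in the third domain; the 68-base exon carries an early stop and is known from fetal brain and non-neuronal tissues. The coding exon at chr15:101024261-101024383 is shown because most of the TPM of transcripts that cover this site was in those that carry it.
Scn8a coding exon, plus strand: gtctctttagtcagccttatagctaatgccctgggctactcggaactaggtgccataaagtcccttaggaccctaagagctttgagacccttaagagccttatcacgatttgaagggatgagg
It held 96.4% in replicate 1 and 96.6% in replicate 2, the 68-base exon 3.27% and 2.58%, and skipping of both 0.281% and 0.870%. The second quantification gave 91.8% and 94.1%, 7.89% and 4.70%, and 0.336% and 1.18%. These small shares rest on Scn8a-209, a fragment of 903 bases with 36.4 and 28.2 counts, and on Scn8a-208.

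Scn1a has an exon of 64 bases that the annotation assigns to nonsense-mediated decay, the pathway that removes messages with early stops. The transcript with it, Scn1a-208, held 3.63% in replicate 1 and 4.33% in replicate 2 of those that cover the site, and 5.12% and 6.13% in the second quantification. An exon of 84 or 93 bases of the same class in Scn2a held 0.297% and 0 in the first quantification and 5.51% and 5.27% in the second, from transcripts of 513 and 576 bases. The Scn1a share was alike in the 2 quantifications and the Scn2a share was not.

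**Figure D5:**
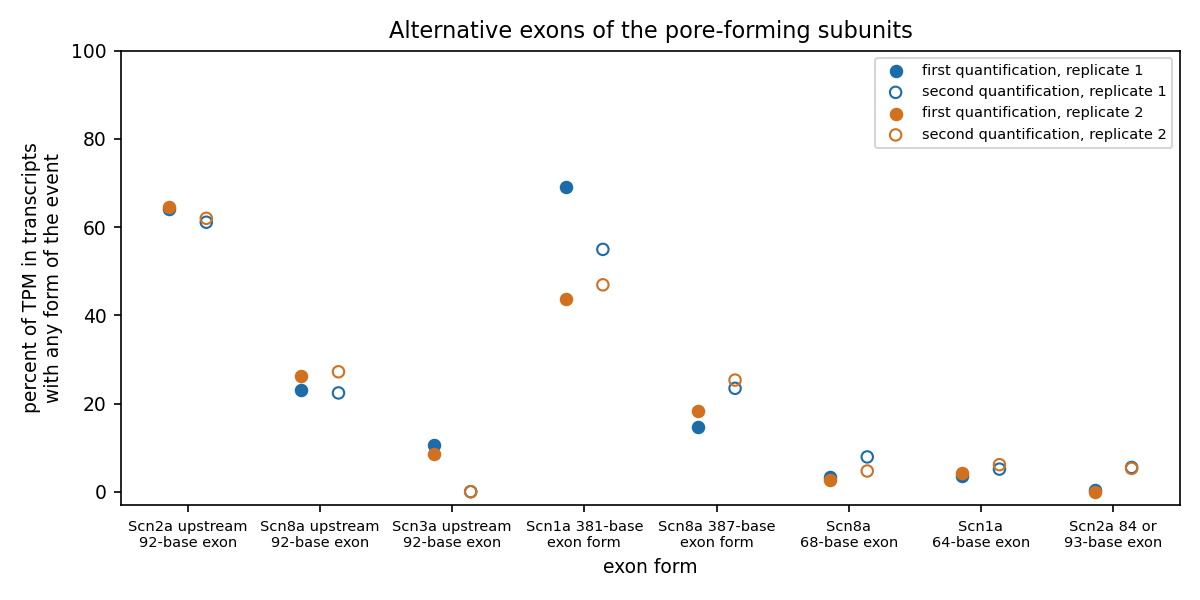
Points give, for each exon form (x axis), its percent of the TPM of transcripts with any form at that site (y axis), filled for the first quantification, open for the second, blue for replicate 1 and orange for replicate 2. The Scn2a upstream exon lies at 61.1% to 64.6% and that of Scn8a at 22.4% to 27.2%, and the Scn1a 381-base form spreads from 43.7% to 69.1%.

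Shared sequence limits how well reads can be placed among the alpha subunits. The coding sequences of Scn2a and Scn3a were 83.9% identical over aligned bases, those of Scn1a and Scn2a 83.0%, and those of Scn1a and Scn3a 81.9%, while Scn8a was 74.9% to 75.3% identical to each of the other 3. Of the 31-base words in each gene's transcripts, the part also present in any other gene, in either orientation, was 9.57% for Scn3a, 9.16% for Scn2a and 7.29% for Scn1a. It was 2.22% for Scn2b, 0.528% for Scn8a, 0.341% for Scn3b and 0 for Scn4b, so the 3 clustered genes on chromosome 2 carry the most uncertainty from shared reads. Matches to genes outside the family are included, and those of Scn2b are all of that kind. Of the 1173 shared words of Scn2a, 822 are also in Scn3a and 550 in Scn1a. Annotated genes on the opposite strand overlap 4 of the members. Gm13630, over Scn1a, had 10 and 7 counts, Gm13595, over Scn3a, and Gm10684, over Scn2b, were listed at 0, and Gm47266, over Scn3b, had 0 and 1; the use of strand in counting is not known here.

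Other pore-forming genes examined were low or near 0. Scn9a (NaV1.7, of sensory and sympathetic neurons), also in the chromosome 2 cluster, had 1.63 ± 0.120 TPM. Scn7a had 0.415 ± 0.163 TPM. Scn4a, of skeletal muscle, and Scn10a and Scn11a, of nociceptors, had at most 4 counts in either library. Of the heart and skeletal muscle markers, Acta1 had 2.70 ± 0.170 TPM, Myh6 had 1.54 ± 0.460 and Actc1 was listed at 0. Of the sensory neuron markers, Prph had 1.48 ± 0.170 TPM and Avil 0.205 ± 0.00707. Acta1, Myh6 and Prph were thus low but passed the rule for detection. The sodium leak channel Nalcn, a relative outside the voltage-gated group, had 25.6 ± 1.64 TPM, above Scn1a.

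Known partners of the channels were all detected, as were 12892 nuclear protein-coding genes by the same rule. The share of all genes that pass it is not given here, so detection alone does not set the partners apart. Of the 4 fibroblast growth factor homologous factors, which bind the alpha subunit tail, all 4 were detected, with a median of 36.8 ± 0.640 TPM (SD of the library medians, n = 2). They ran from Fgf13 at 170 ± 1.70 TPM and Fgf12 at 60.0 ± 2.06 to Fgf14 at 13.6 ± 0.778 and Fgf11 at 8.67 ± 1.74. In the list for the axon, its initial segment and its nodes, all 8 genes were detected, with a median of 144.7 ± 5.42 TPM. Ank2, an ankyrin whose place at the initial segment or node was not examined here, had 369 ± 8.58. Ank3, which tethers the channels at the initial segment, had 210.5 ± 0.976, and Nrcam 193 ± 0.841. The lowest was Cntn2 at 22.6 ± 1.80. The anchor Ank3 was thus above every one of the 7 channel genes.

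The 7 regulators of channel turnover, processing or transcription had a median of 42.6 ± 2.00 TPM. Nedd4 had 133 ± 7.11 TPM, Nedd4l, a ubiquitin ligase of sodium channels, 83.2 ± 2.47, and Csnk2a1, whose kinase strengthens ankyrin binding, 49.4 ± 1.17. The lowest was Rest, the repressor of neuronal genes outside neurons that also acts on Scn2a, at 2.51 ± 0.184 TPM.

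The 10 splicing regulators had a median of 72.4 ± 1.24 TPM. Celf4 had 177 ± 24.6 TPM, Rbfox1 150.2 ± 2.75 and Rbfox3 103.7 ± 3.51, and the lowest was Nova1 at 14.2 ± 0.0636. None of the 29 partner genes passed 1.5-fold between the libraries, where the share over all genes was 4.25%.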

How the data were processed

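Total RNA sequencing of 2 mouse hippocampus libraries was used as deposited. The authors quantified both libraries against mm10 and GENCODE M21, per the deposited notes. The first quantification (RSEM layout) gives expected counts, TPM, FPKM and each transcript's percent of its gene, per the file headers, and was made from transcriptome alignments. The second (kallisto layout) gives estimated counts and TPM per transcript, per the file headers, summed here to genes. The aligner, the versions of the authors' tools and any use of strand are not stated there. Reads from CAST/EiJ alleles differ more from mm10, and alleles were not analysed here.

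Library totals were 33465393 and 32879872 expected counts, ERCC spike-ins taking 143817 and 139031. The spike-ins stayed out of library sizes. Levels are TPM as mean ± SD (n = 2), and a gene was detected at 1 TPM or more in both libraries. Ratios used expected counts with TMM factors (edgeR 4.0.16, R 4.3.3) and a prior count of 0.5. A self-test used simulated counts with counting error only, so it does not cover biological spread, and its outcome is not given here. Counting intervals (95%) are exact Poisson or binomial and cover counting error only. Exon shares are TPM of transcripts with an exon form over TPM of transcripts with any form at the site. Sequences and positions were read from GENCODE M21 transcripts and annotation. Partner lists are named by their 3 highest and lowest genes, transcripts by a share of at least 10% in either quantification. Members and lists were chosen with earlier results of these data known. Alternatives were the second quantification, FPKM, other scalings (DESeq2 1.42.0 size factors, totals, spike-ins), pseudocounts, filters and leaving out each library. Other software was Python 3.11.15, numpy 2.4.6, pandas 2.3.3, scipy 1.17.1 and Biopython 1.88. Some family genes and exon sequences are not reported here.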

Additional observations from a re-analysis of the deposited data

How the results depend on the processing

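No member passed 1.5-fold between the libraries with any of the 3 other scalings, in the second quantification, or without the filter on low counts, where the share of all genes past it was 32.3%, and the median log2 ratio of all genes was -0.07 with total counts and -0.05 with spike-ins. The median member level, 66.8 TPM, was 93.2 in the second quantification, 151.8 when TPM was rescaled over nuclear protein-coding genes, and 45.9 as FPKM. Without either replicate in turn it ranged from 63.2 to 70.3. The partner median of 59.2 TPM was 94.0 in the second quantification and 58.5 to 59.5 with a library left out. The Scn2a share of alpha subunit TPM, 46.7%, was 44.6% by expected counts and 46.3% to 47.1% with a library left out. The Scn2a upstream exon share, 64.4%, was 61.6% in the second quantification, 78.8% over transcripts with at least 5000 coding bases and 80.2% by expected counts, and 64.2% to 64.6% with a library left out. The Scn8a share, 24.7%, was 0.592% over such transcripts and 6.86% by counts, and 23.1% to 26.2% with a library left out. In the second quantification it was 24.8%, 12.1% over such transcripts and 16.2% by counts, and the cause of these differences was not tested. The median log2 difference of the second from the first quantification, 0.49, was 0.48 with log2(TPM + 1) and reversed to -0.23 when both were rescaled over nuclear protein-coding genes, where all 13168 such genes gave -0.08. That rescaling, and the 5000-base and count alternatives for exon shares, were chosen after seeing the data. A transcript held over 50% of its gene for 4 genes, and for 4 to 5 with a library left out, with no share over all genes given here. No paired analysis was possible because there is 1 group. Of the alternatives for the other results, 109 stayed within the spread between the libraries, or within 1.5 times for the share of genes past 1.5-fold, and 47 did not. Leaving out 1 of 2 libraries always moves a mean by less than their SD, so those alternatives could not fall outside it. The member log2 ratios were judged against a spread of 0.405, larger than any of their shifts. The tally is therefore no measure of how robust the results are. With 2 libraries the spread itself is poorly known, and Scn4b, with 290 and 387 counts, is the member with the least depth.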
